A study of Mus musculus with 34 samples.

Results

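Primordial germ cells of the mouse embryo at E11.5 were compared with the somatic cells around them, the cells of the gonad and mesonephros of the same age. The comparison used 8 of the 34 columns of the deposited table: germ cell replicates 1 to 4 and soma replicates 1 to 4. They were chosen by sample title, and a column labelled germ cell replicate 5 was left out because it equals the mean of the other 4 in every probe set. Both groups were C57Bl/6, of mixed sex and untreated as far as the labels say, and both were collected by fluorescence-activated sorting on a GFP reporter of Oct4. Germ cells were the GFP-positive fraction and soma the GFP-negative fraction of gonad and mesonephros together, so the soma is a mixture of cell types. The labels call the replicates biological but give neither the number of embryos pooled nor the litters. Where replicates came from pools of the same embryos, the p-values measure only the spread between samples within groups. That spread was pooled over all 10 groups of the series. The study set embryo-derived and cultured pluripotent cells beside non-pluripotent controls on Affymetrix arrays, with RNA amplified by 2 rounds of in vitro transcription before labelling.

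Primordial germ cells are the embryonic precursors of eggs and sperm. They arise near the base of the allantois, migrate through the hindgut into the genital ridges and there multiply, erase much of their DNA methylation and keep part of the transcription factor network of pluripotent cells until sex determination. The ridge soma, which will form Sertoli, granulosa and steroid-making cells, and the adjoining mesonephros, a transient kidney, supply the ligands that guide germ cells and keep them alive.

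All values below are log2 signals made by RMA, and a difference is the mean of the 4 germ cell arrays minus the mean of the 4 soma arrays. A gene was called where limma gave a two-sided Benjamini-Hochberg adjusted p under 0.05 over all 8251 genes, each represented by its brightest probe set. Errors are SD over the 4 arrays of a group for means and SE of the fit for differences. The fit pooled its spread over 32 arrays in 10 groups, so SE and p-values do not rest on the 2 compared groups alone. For Hbb-y the SD was 1.41 in germ cells and 0.06 in soma and the SE 0.39. For Lifr the SD was 0.16 and 0.08 and the SE 0.26. Array signal has no true zero and the table holds no detection calls, so a fold against a gene near the lowest signals is a rough measure, and levels of different genes were not compared. RMA brings all arrays to 1 scale, so in these bulk samples fewer cells of a type and less RNA per cell cannot be told apart.

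Rises and falls were similar in number and spread over the genome. Of 8251 genes, 1918 were higher in germ cells (23.2%) and 2223 lower (26.9%), and the median difference over all genes was -0.04. Counts of list members below are to be read against these shares. At least 2-fold were 720 higher (8.73%) and 649 lower (7.87%). At 8-fold the counts were 34 higher and 59 lower, and at 32-fold they were 8 and 4. In 1769 genes (21.4%) all 4 germ cell arrays lay above all 4 soma arrays, and in 2183 (26.5%) they all lay below. Of 259 X-linked genes 56 were higher and 81 lower (21.6% and 31.3%), against 23.3% and 26.8% of autosomal genes.

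**Figure D1:**
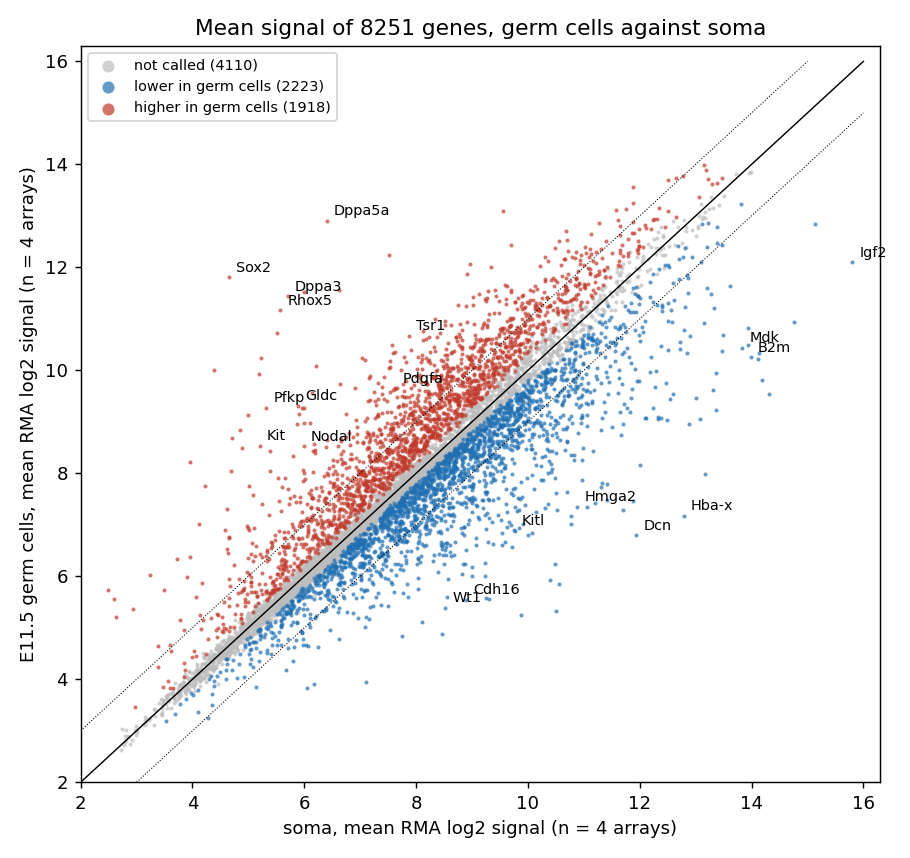
Mean log2 signal of each of 8251 genes in soma (horizontal axis) and in germ cells (vertical axis), 4 arrays a group. Red points are the 1918 genes called higher in germ cells, blue points the 2223 called lower and grey points the 4110 not called, and dotted lines mark a 2-fold difference.

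Germ cell replicate 4 stood apart from the other arrays of its group, and soma replicate 2 did so among the rises. The root mean square deviation from the group mean over all genes was 0.270 for germ cell replicate 4 and 0.121 to 0.181 for the other germ cell arrays. It was 0.222 for soma replicate 2, 0.198 for soma replicate 1 and 0.112 and 0.128 for the other soma arrays. Among the 720 genes at least 2-fold higher in germ cells, replicate 4 was the germ cell array nearest the soma in 523 (72.64%), and soma replicate 2 was the soma array nearest the germ cells in 423 (58.75%). Among the 649 genes at least 2-fold lower, germ cell replicate 4 was nearest in 358 (55.16%). Soma replicates 1 and 2 were level there, nearest in 237 (36.52%) and 236 (36.36%). Without germ cell replicate 4 the 2-fold counts were 816 and 681, and without soma replicate 2 they were 787 and 650. The erythroid list summed highest in replicate 4 among the germ cell arrays, and so did the gonad regulator, mesonephros, endothelial, macrophage, smooth muscle and neural lists. The germ cell list summed lowest in replicate 4 (132.71, against 137.05 to 137.59 in the other germ cell arrays). The gap between 3′ and 5′ control probe sets was 0.81 to 1.09 for beta-actin in germ cells and 0.65 to 0.81 in soma, and 3.21 to 3.67 against 2.75 to 3.22 for Gapdh. What sets these arrays apart, and the part of the 3′ to 5′ gap in the differences, was not tested.

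**Figure D2:**
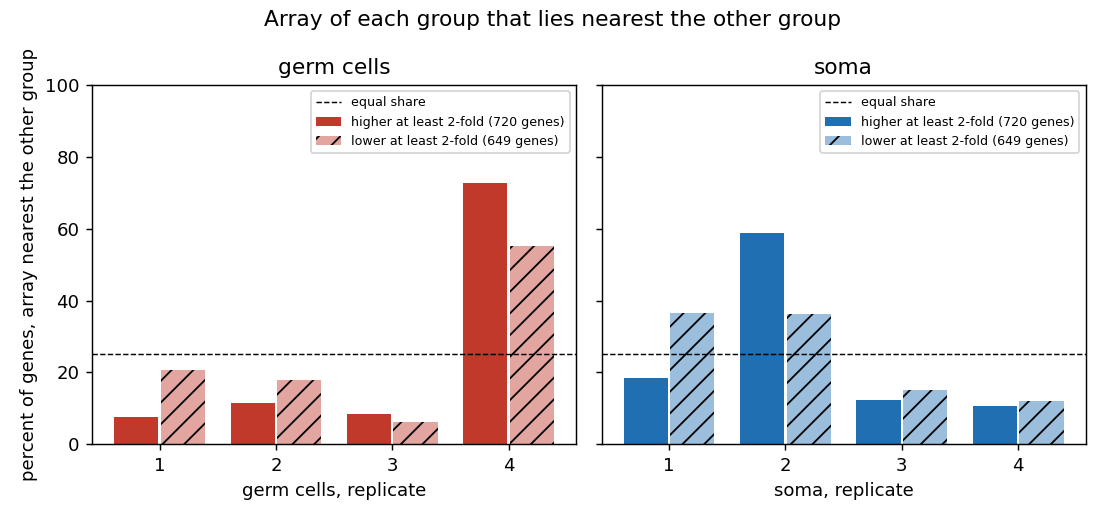
Percent of genes for which each replicate was the array of its group nearest to the other group (vertical axis, percent), for genes at least 2-fold higher and at least 2-fold lower in germ cells, with a dashed line at an equal share of 25%. Germ cell replicate 4 reached 72.64% of the 720 rises and soma replicate 2 reached 58.75%.

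The germ cell fraction carried more RNA of germ cell genes than the soma did. Of 16 measured genes of germ cell specification and identity, 12 rose and none fell, and their mean level ran from 8.29 to 8.60 over the 4 germ cell arrays against 6.22 to 6.25 over the 4 soma arrays. Dppa3, a maternal and germ cell factor that shields DNA from demethylation in the zygote, read 11.64, 11.75, 11.54 and 10.80 in the germ cells and 5.71, 5.73, 5.75 and 5.64 in the soma. The groups lay far apart in each array, with germ cell replicate 4 the lowest of its group. The difference was 5.73 ± 0.16 (SE), 53-fold, adjusted p = 3.3e-21. Pou5f1, which encodes Oct4 and whose reporter was used for the sort, read 10.19, 10.04, 9.93 and 9.84 in the germ cells and 4.45, 4.43, 4.27 and 4.38 in the soma and is a check of the labels, not a finding (5.61 ± 0.18 (SE), 49-fold). The probe set brightest over all 32 arrays stands for a gene. Where a further probe set gave another call, its log2 difference and call are given in parentheses, here for Pou5f1 (0.20, not called). For called genes this was also done where the log2 difference of a further probe set was over 1.5 times larger or smaller.

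Among the defining markers of gonad soma, Wt1 (-3.13), Nr2f2 (-3.14), Nr5a1 (-0.60) and Tcf21 (-2.08) were called lower in germ cells. Gata4 (-0.21, adjusted p = 0.077) and Lhx9 (-0.08, adjusted p = 0.55) were not called. Over the 8 compared arrays the other probe set of Lhx9 is the brighter, and it was lower in germ cells (-1.12, adjusted p = 1.3e-08). Without germ cell replicate 4, Gata4 was called lower (adjusted p = 0.024). Of the duct and tubule factors of the mesonephros, Pax2 (-0.04) and Lhx1 (0.19) were not called. Pax8 was called lower by a small margin (-0.22, adjusted p = 0.025), and the call was lost without germ cell replicate 3 or without soma replicate 1, 3 or 4 (limma adjusted p from 0.065 to 0.079). By the wider lists, 12 of 25 measured gonad regulators and 21 of 32 mesonephros genes were lower in germ cells. At least 2-fold lower were 8 of the gonad regulators and 8 of the mesonephros genes, with largest falls of -3.17 and -3.34. Other values came from further probe sets of Nr2f2 (-0.25, not called), Nr5a1 (-1.49 and -0.30, lower, and 0.05 and -0.39, not called) and Lhx9 (-1.12, lower).

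Blood, vessel and muscle RNA was also higher in the soma. Of 24 measured erythroid genes 21 were lower in germ cells, and the mean level of the list was 7.17 to 7.59 over germ cell arrays and 8.49 to 9.04 over soma arrays. Of 22 endothelial genes 13 were lower (6.61 to 6.78 against 7.07 to 7.25), led by the endomucin gene Emcn (-2.76). Among other defining markers, Kdr was lower (-1.12, 2.17-fold), while Pecam1 (-0.08) and Tek (-0.07) were not called. Any further probe sets of Kdr were not looked at, and it is not in the closing checks of named genes. Of 12 smooth muscle genes 7 were lower (7.06 to 7.31 against 7.85 to 8.06). Macrophage genes gave 11 of 29 lower, but the range of the list overlapped (6.39 to 6.58 against 6.58 to 6.88), and the count was 6 without soma replicate 4 and 7 without germ cell replicate 3. The defining macrophage markers Ptprc (0.20) and Adgre1 (-0.16) were not called, and the calls of Csf1r (-0.30, adjusted p = 0.022) and Tyrobp (-0.54, adjusted p = 0.048) were lost without soma replicate 4 (adjusted p = 0.15 and 0.25). Csf1r also lost its call without germ cell replicate 1, and Tyrobp without germ cell replicate 1, 2 or 3 or soma replicate 3. Neural genes gave 2 higher and 4 lower of 17, with the neural crest factor Sox10 at -0.12 and not called. The part of these other cell types in the genes lower in germ cells was not tested. A further probe set disagreed for Emcn (-0.30 and -0.83, lower) and Csf1r (0.16, not called).

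The 15 largest rises included Sox2, Nanog and Pou5f1, regulators of the pluripotent state. Sox2, the partner of Oct4 at its target sites, read 11.62, 12.08, 11.88 and 11.65 in the germ cells and 4.37, 4.79, 4.66 and 4.80 in the soma. Every germ cell array lay far above every soma array, and the difference was 7.15 ± 0.13 (SE), 142-fold, adjusted p = 2.4e-25. Dppa5a, an RNA-binding protein of early embryos and germ cells, read 12.85, 12.90, 12.90 and 12.96 in the germ cells and 6.50, 6.07, 6.30 and 6.74 in the soma (6.50 ± 0.13 (SE), 90.7-fold). Its germ cell arrays lay close together, with a mean of 12.90 ± 0.04 (SD, n = 4). Nanog, a homeobox factor that stabilises the pluripotent state, read 11.45, 11.74, 11.63 and 11.43 in the germ cells and 6.45, 6.84, 6.53 and 6.65 in the soma (4.95 ± 0.18 (SE), 30.8-fold). The other rises of the top 15 were Rhox5 (5.60) and Rhox6 (3.99), X-linked homeobox genes, Trap1a (5.52), Fbxo15 (5.21), Dppa2 (5.01), Dppa4 (4.73), Zfp42 (4.74), the Polycomb-related Sfmbt2 (4.27), the cytokine-signalling suppressor Socs2 (4.14) and the single-stranded DNA-binding gene Nabp1 (3.97), with Dppa3 and Pou5f1 as given above. Probe sets disagreed for Nanog (1.53, higher) and Pou5f1 (0.20, not called).

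The 15 largest falls included 4 globin genes. Hba-x, the embryonic alpha-like globin, read 7.22, 6.69, 6.65 and 8.16 in the germ cells and 12.45, 12.57, 12.80 and 13.31 in the soma (-5.61 ± 0.21 (SE), 48.7-fold, adjusted p = 4.8e-18). Germ cell replicate 4 was the highest of its group and still far below the lowest soma array. Hba-a1 (-5.19), Hbb-b2 (-5.18) and Hbb-y (-4.41) fell with it, and genes within the alpha family, or within the beta family, are similar in sequence, so their probe sets may not be separable within a family. Dcn, the proteoglycan decorin, read 6.85, 6.54, 6.42 and 7.35 in the germ cells and 11.81, 11.89, 11.71 and 12.36 in the soma (-5.15 ± 0.23 (SE), 35.5-fold). Gja1, which encodes the gap junction protein connexin 43, read 6.20, 5.41, 4.94 and 6.81 in the germ cells and 10.57, 10.42, 10.62 and 10.59 in the soma (-4.71 ± 0.23 (SE), 26.1-fold). Fos, an immediate early transcription factor, read 10.03, 9.10, 8.85 and 10.21 in the germ cells and 14.07, 14.63, 13.91 and 14.59 in the soma (-4.76 ± 0.33 (SE), 27.1-fold). The rest were Mgst1 (-4.64), Crabp2 (-4.45), Itm2a (-4.42), the tetraspanin Cd63 (-4.38), the matrix genes Postn (-4.24) and Col3a1 (-4.15), Marcks (-4.02) and the imprinted gene Mest (-3.94). Values of further probe sets differed for Gja1 (-2.85, lower) and Fos (-0.11, not called).

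**Figure D3:**
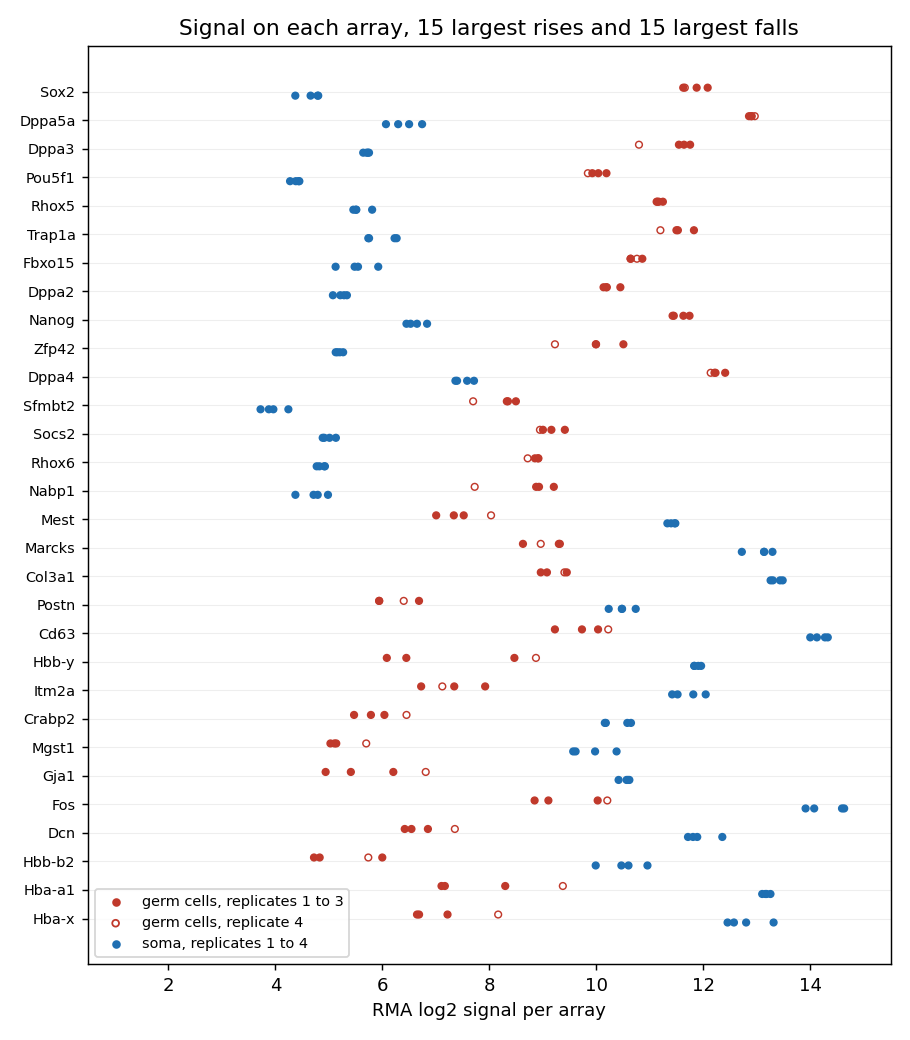
Log2 signal (horizontal axis) of the 15 largest rises and the 15 largest falls in each of 4 germ cell and 4 soma arrays, 1 point per array, with an open circle for germ cell replicate 4. The groups do not overlap in any of the 30 genes, by the rule that chose them.

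Signals between the fractions were examined first through their ligands and receptors. Of 77 measured ligands 36 were lower in germ cells and 4 higher, with a median difference of -0.20, and of 75 receptors 31 were lower and 12 higher, with a median of -0.13. Kitl, the ligand that Kit-bearing germ cells need to survive and migrate, read 7.05, 6.84, 6.72 and 6.93 in the germ cells and 9.21, 10.12, 10.09 and 9.64 in the soma (-2.88 ± 0.18 (SE), 7.36-fold, adjusted p = 1.1e-13). Kit, its receptor tyrosine kinase, read 8.78, 8.77, 8.68 and 7.91 in the germ cells and 4.78, 5.86, 5.22 and 4.95 in the soma (3.33 ± 0.22 (SE), 10.1-fold, adjusted p = 4.2e-13). The 2 genes differed in opposite directions with no overlap of arrays, and germ cell replicate 4 was the lowest germ cell array for Kit. Cxcl12, a chemokine that draws germ cells to the ridge, read 7.38, 7.18, 7.14 and 7.39 in the germ cells and 9.40, 10.16, 10.23 and 9.42 in the soma (-2.53 ± 0.15 (SE), 5.76-fold, adjusted p = 1.1e-13). Its receptor Cxcr4 read 4.91, 4.56, 4.45 and 4.70 in the germ cells and 3.52, 3.48, 3.21 and 3.35 in the soma, a smaller rise with no overlap of arrays (1.26 ± 0.13 (SE), 2.40-fold, adjusted p = 5.7e-09). The Cxcr4 signals are low, so this fold is a rough measure.

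The platelet-derived growth factor axis ran the other way, with the ligand higher in germ cells. Pdgfa read 9.72, 9.65, 9.57 and 9.65 in the germ cells and 7.69, 7.12, 7.77 and 7.93 in the soma (2.02 ± 0.18 (SE), 4.05-fold, adjusted p = 2.4e-10). Its receptor gene Pdgfra, a mark of mesenchyme, read 8.49, 8.56, 8.40 and 8.55 in the germ cells and 10.77, 11.34, 10.93 and 10.88 in the soma (-2.48 ± 0.22 (SE), 5.58-fold), and Pdgfrb, the second receptor, fell by 3.22-fold (-1.69). Pdgfb was not called (0.08). In the neuregulin family, the receptor Erbb3 was higher (1.51 ± 0.23 (SE)), while Egfr (-0.13) and Erbb4 (0.21) were not called. Erbb4 was called higher without germ cell replicate 4 (adjusted p = 0.024). From further probe sets came other values for Pdgfra (0.14 and -0.16, not called) and Erbb3 (0.01, not called).

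Ligands of the Nodal branch rose in germ cells, and inhibin and activin subunits were lower. Nodal, a TGF-beta family ligand of the early embryo, read 8.72, 8.30, 8.53 and 8.55 in the germ cells and 5.91, 6.06, 6.04 and 5.95 in the soma (2.54 ± 0.15 (SE), 5.80-fold, adjusted p = 1.0e-13). Gdf3, a related ligand, read 10.54, 10.66, 10.63 and 10.78 in the germ cells and 8.62, 7.94, 8.08 and 8.30 in the soma (2.42 ± 0.19 (SE), 5.34-fold), and the co-receptor Tdgf1 rose by 0.97 ± 0.21 (SE). Inhba (-0.52) and Inhbb (-0.90), the activin chains, and Inha (-1.29), the inhibin chain, fell. The receptor calls were mixed and small: Acvr2a fell (-0.91), and Acvr1b (-0.19, adjusted p = 0.032) and Acvr2b (0.31, adjusted p = 0.03) stood near the threshold. Each of the latter pair lost its call without germ cell replicate 4 or soma replicate 4 (adjusted p from 0.057 to 0.080), Acvr1b also without germ cell replicate 2 or soma replicate 1, and Acvr2b also without germ cell replicate 1 or soma replicate 2. Of 57 measured genes of the BMP, activin and TGF-beta pathway, 8 rose and 20 fell (median -0.11). The BMP-induced inhibitors Id1 (-2.39), Id2 (-2.71) and Id3 (-1.31) were among the largest falls, beside the latent TGF-beta binding protein Ltbp1 (-3.23), and the signal transducer Smad2 was among the rises (1.67). By further probe sets, values differed for Gdf3 (0.06, not called) and Acvr2a (0.16, not called).

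Insulin-like growth factor genes were lower in germ cells than in soma at several levels of the pathway. Of 15 measured genes 9 fell and none rose (median -0.32). Igf2, a fetal growth factor, read 12.29, 11.84, 11.58 and 12.67 in the germ cells and 15.92, 15.67, 15.79 and 15.82 in the soma (-3.70 ± 0.16 (SE), 13-fold). Its soma signals are the highest of all genes on the 8 compared arrays, where arrays may saturate, so this fold may understate the difference. On other arrays of the series 11 genes read above 16, so a further adjustment of the scale cannot be told from these values. Igfbp3, which binds IGF in the extracellular space, read 10.71, 10.58, 10.31 and 10.34 in the germ cells and 13.96, 13.83, 13.77 and 14.21 in the soma (-3.46 ± 0.17 (SE), 11-fold), and Igfbp2 (-2.10), Igf2r (-0.97) and Igf1r (-0.69) also fell. Further probe sets differed for Igf2 (0.07, not called) and Igfbp3 (-0.64, lower).

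Heparin-binding and guidance signals also stood higher in the soma. The midkine gene Mdk fell by 10.5-fold (-3.39 ± 0.16 (SE)) and its relative Ptn by 4.77-fold (-2.25 ± 0.35 (SE)). Nrp1, a receptor for semaphorins and VEGF, read 7.47, 7.23, 6.99 and 7.93 in the germ cells and 10.69, 10.20, 10.33 and 10.18 in the soma (-2.95 ± 0.19 (SE), 7.70-fold, adjusted p = 4.7e-13). Among semaphorins, plexins and other guidance genes, 11 of 22 fell and 4 rose, and the largest rise was 0.76 (Sema4d). The Gas6 system, a ligand and 3 receptor kinases that help clear dying cells, was also lower: the ligand Gas6 (-0.93) and the receptors Tyro3 (-2.04) and Axl (-0.87). Pros1, a second ligand (-0.62), lost its call without soma replicate 2 (adjusted p = 0.062), and the small fall of Mertk (-0.24) lost its call without germ cell replicate 1 or 2 or soma replicate 1 or 3 (adjusted p from 0.068 to 0.097). The ephrin Efnb2 fell (-1.65 ± 0.32 (SE)), and 6 of 16 ephrins and Eph receptors fell while 2 rose. Other values came from further probe sets of Tyro3 (-0.37, lower).

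Wnt, Hedgehog and Notch genes did not move as blocks. Of 44 measured Wnt pathway genes 18 fell, 4 rose and 22 were not called (median -0.09). Wnt4, which the female gonad later depends on, read 6.64, 6.57, 6.50 and 6.91 in the germ cells and 9.89, 8.43, 9.39 and 9.45 in the soma (-2.64 ± 0.18 (SE), 6.22-fold, adjusted p = 1.4e-12), and Wnt6 (-1.67), Fzd2 (-1.73) and the secreted antagonists Sfrp1 (-1.45) and Sfrp2 (-1.47) also fell. Of 10 measured Hedgehog genes 4 fell, 1 rose and 5 were not called. The signal transducer Smo (-2.38 ± 0.14 (SE)) and the co-receptor Gas1 (-3.45 ± 0.16 (SE)) fell at least 2-fold. The receptor Ptch1 rose (0.97 ± 0.21 (SE)), but its arrays overlapped, with germ cell replicate 4 the lowest of its group (7.56). The ligands Shh (-0.11), Ihh (0.07) and Dhh (-0.16) were not called. In the Notch pathway, 6 of 16 fell and 3 rose. The non-canonical ligand Dlk1 (-2.47) and Notch3 (-1.26) were among the falls, and the transcriptional repressor Hey1 was the largest rise (1.90 ± 0.11 (SE)). A further probe set disagreed for Ptch1 (-0.05, not called).

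Retinoic acid genes stood higher in the soma where they were called. Of 18 measured, 8 fell and none rose (median -0.16). Crabp2, a carrier that delivers retinoic acid to its receptors, read 6.04, 5.79, 5.47 and 6.45 in the germ cells and 10.58, 10.65, 10.16 and 10.18 in the soma (-4.45 ± 0.19 (SE), 21.9-fold, adjusted p = 8.5e-17). Aldh1a2, the enzyme that makes retinoic acid in the mesonephros, read 5.83, 5.99, 6.11 and 5.96 in the germ cells and 6.91, 7.98, 7.38 and 7.54 in the soma (-1.48 ± 0.14 (SE), 2.79-fold), and Crabp1 (-1.90), Rarres2 (-1.79) and Dhrs3 (-1.05) fell as well. Interleukin-6 family receptors split: Il6st, the shared signalling chain gp130, rose (0.79 ± 0.14 (SE)), and Lifr fell (-0.76 ± 0.26 (SE)). Probe sets disagreed for Il6st (0.07, not called) and Lifr (0.13, -0.09, 0.07 and 0.09, not called).

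**Figure D4:**
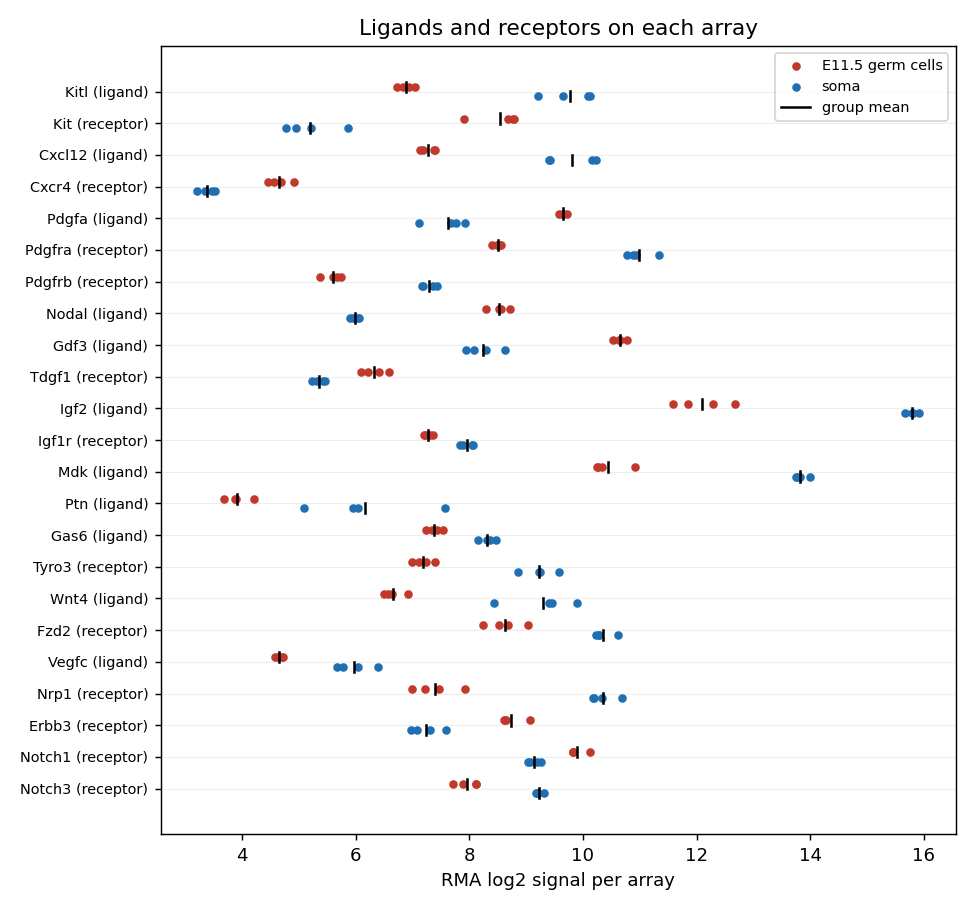
Log2 signal (horizontal axis) of 23 ligand and receptor genes in each of 4 germ cell and 4 soma arrays, 1 point per array. Kit, Cxcr4, Nodal, Gdf3 and Pdgfa stand higher in the germ cells, and Kitl, Cxcl12, Pdgfra and Igf2 stand higher in the soma.

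The pluripotency network rose broadly, with 23 of 28 measured genes higher and 2 lower (median 1.86). The count was 23 without germ cell replicate 4. Besides the genes of the top 15, the exceptions were Klf4 and Tbx3. Klf4, a factor used for reprogramming, read 7.85, 7.62, 7.33 and 7.73 in the germ cells and 10.30, 11.10, 10.34 and 11.04 in the soma (-3.06 ± 0.24 (SE), 8.33-fold), and Tbx3, a T-box factor, read 6.00, 5.41, 5.47 and 5.94 in the germ cells and 6.87, 7.33, 7.08 and 6.97 in the soma (-1.36 ± 0.12 (SE), 2.56-fold). Both fell with no overlap of arrays. Klf4 is also a member of the immediate early list below, for which the part of handling was not tested. In the germ cell list, Prdm1, the repressor that specifies germ cells, read 8.62, 8.91, 8.75 and 7.69 in the germ cells and 4.84, 4.96, 4.91 and 4.87 in the soma (3.60 ± 0.17 (SE), 12.1-fold), with replicate 4 about a log2 unit below its fellows. Ddx4, a germ cell RNA helicase, rose by 2.11 ± 0.21 (SE), and Dazl (0.63), Tfap2c (3.10) and Alpl (2.09) are the other measured defining markers. Values of further probe sets differed for Klf4 (-0.08, not called) and Dazl (3.16, higher).

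Genes of meiosis were mostly not called at this age. Of 9 measured, 3 rose and 6 were not called. Stag3, a meiotic cohesin subunit, read 8.02, 7.70, 8.10 and 8.26 in the germ cells and 6.17, 6.17, 6.04 and 6.23 in the soma (1.87 ± 0.09 (SE), 3.65-fold, adjusted p = 1.9e-15). Syce2, a part of the synaptonemal complex, read 8.30, 8.76, 8.71 and 8.78 in the germ cells and 6.51, 6.10, 6.40 and 6.59 in the soma (2.24 ± 0.14 (SE), 4.71-fold, adjusted p = 2.8e-13). The meiotic inducer Stra8 (-0.13) and the complex's lateral element Sycp3 (0.01), chosen for mention after their values were seen, were not called.

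Genes of cell division rose in most of their measured members. Of 39 measured genes of mitosis and chromosome segregation, 32 were higher in germ cells and none lower (median 0.91), and of 47 genes of DNA replication 36 were higher and 3 lower (median 0.95). Nek2, a centrosome kinase, read 10.18, 10.31, 10.48 and 9.24 in the germ cells and 7.22, 7.92, 7.54 and 7.39 in the soma (2.54 ± 0.20 (SE), 5.80-fold, adjusted p = 1.2e-11). Bub1, a kinase of the spindle checkpoint, read 11.20, 11.39, 11.14 and 9.86 in the germ cells and 8.36, 9.66, 8.91 and 8.23 in the soma (2.11 ± 0.30 (SE), 4.31-fold). Germ cell replicate 4 was the lowest and soma replicate 2 the highest of their groups for both. Smc3, a cohesin subunit, rose by 5.41-fold, Mki67 by 4.36-fold and Ect2, a cytokinesis regulator, by 4.03-fold. Among the 32 called mitosis genes, germ cell replicate 4 was the array nearest the soma in 17 and soma replicate 2 the array nearest the germ cells in 20. Without germ cell replicate 4 the rises were 32 for mitosis and 35 for DNA replication. From further probe sets came other values for Bub1 (0.36 and 1.11, higher) and Mki67 (0.06, not called).

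At replication origins, Cdc7, a kinase that starts origin firing, rose by 2.47 ± 0.22 (SE) and Cdc6, a loader of the helicase, by 2.26 ± 0.15 (SE). Fen1 (1.88), Rfc4 (1.82) and Prim1 (1.78) followed, and Umps (-0.68), Tk1 (-0.57) and Rfc2 (-0.48) were lower. DNA repair gave 25 of 42 higher and 4 lower. Brca1, a mediator of homologous recombination, read 11.15, 11.31, 11.03 and 10.36 in the germ cells and 8.25, 8.93, 8.72 and 8.15 in the soma (2.45 ± 0.19 (SE), 5.46-fold). The G1 regulators gave 8 of 31 higher and 10 lower, near the shares of 23.2% and 26.9% over all genes. Cdkn1c, the imprinted cyclin-dependent kinase inhibitor p57, read 8.03, 7.87, 6.98 and 8.05 in the germ cells and 11.33, 11.44, 11.22 and 11.22 in the soma (-3.57 ± 0.24 (SE), 11.9-fold, adjusted p = 4.7e-13). Cdk4 (-1.08) and Ccnd1 (-1.67), which drive entry into the cycle, also fell, while Mycn (1.34), Max (1.71) and the retinoblastoma gene Rb1 (1.12) rose. By further probe sets, values differed for Umps (-0.20, lower, and 0.28, higher), Tk1 (-0.03, not called), Cdk4 (-0.57, lower), Ccnd1 (-0.09, not called), Mycn (0.01, not called) and Rb1 (0.61, higher).

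Promoters were read for all members with a promoter, called or not, of the mitosis, DNA replication and cholesterol lists. RefSeq promoters (build GRCm38.p6) were searched for 6572 of the 8251 genes, over the 250 bases before the first listed start and on both strands. The CCAAT box (CCAAT or ATTGG), which the factor NF-Y binds, was in 65.62% of 32 mitosis promoters, 81.82% of 22 cholesterol promoters and 54.76% of 42 DNA replication promoters, against 35.85% of all 6572. The letters of the cell cycle homology region (TTTGAA or TTCAAA) were in 34.38% of mitosis promoters and 11.63% of all. E2F site letters (TTTCCCGC) were in 0 of 32 mitosis promoters (0.0%) and 1.69% of all. Sterol element letters (TCACNCCAC) were in 1 of 22 cholesterol promoters (4.55%) and 1.11% of all. Hits of these rarer motifs were too few for their shares to be compared. The CCAAT share among genes at least 2-fold higher was 39.45% of 578, and among those at least 2-fold lower it was 32.09% of 508. These matches describe letters in a window and show no binding. Below are promoters of 2 mitosis genes with both motifs and of 2 cholesterol genes with the CCAAT box, all called higher. They were picked because they hold these motifs, so finding the letters in them is no result. They are written 5′ to 3′ on the strand of the gene with CCAAT boxes and cell cycle homology letters in capitals. Ect2 lies at chr3:27153879-27154128 (minus strand), Mki67 at chr7:135716380-135716629 (minus strand), Hmgcs1 at chr13:119690101-119690350 (plus strand) and Msmo1 at chr8:64733579-64733828 (minus strand).
Ect2: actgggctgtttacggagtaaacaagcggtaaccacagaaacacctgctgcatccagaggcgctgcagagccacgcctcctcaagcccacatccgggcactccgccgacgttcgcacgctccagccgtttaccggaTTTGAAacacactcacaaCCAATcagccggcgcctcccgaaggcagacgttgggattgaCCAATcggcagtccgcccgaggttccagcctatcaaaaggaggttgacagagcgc
Mki67: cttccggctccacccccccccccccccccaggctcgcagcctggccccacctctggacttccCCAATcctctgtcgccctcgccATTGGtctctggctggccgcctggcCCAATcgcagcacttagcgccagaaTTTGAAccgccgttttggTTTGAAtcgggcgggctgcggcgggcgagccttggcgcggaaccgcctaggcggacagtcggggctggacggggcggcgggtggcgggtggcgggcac
Hmgcs1: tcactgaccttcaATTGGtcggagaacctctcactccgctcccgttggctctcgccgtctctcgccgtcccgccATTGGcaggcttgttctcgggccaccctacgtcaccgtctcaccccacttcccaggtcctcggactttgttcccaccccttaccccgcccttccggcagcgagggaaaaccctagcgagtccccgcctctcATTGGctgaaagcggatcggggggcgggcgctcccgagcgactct
Msmo1: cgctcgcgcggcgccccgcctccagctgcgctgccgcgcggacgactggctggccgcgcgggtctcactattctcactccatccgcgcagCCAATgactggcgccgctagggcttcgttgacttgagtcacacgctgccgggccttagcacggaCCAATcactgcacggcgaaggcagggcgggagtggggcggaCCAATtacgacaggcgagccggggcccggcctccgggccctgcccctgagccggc
In Ect2 the boxes lie 96 and 55 bases before the start and the homology letters 114 bases before it. In Mki67 there are CCAAT boxes at 188, 166 and 141 bases and homology letters at 116 and 98. Hmgcs1 holds boxes at 237, 176 and 45 bases, and Msmo1 at 160, 96 and 55. Of the cholesterol genes that met the same rule and are not shown, Lss holds 1 box and Idi1 holds 2. Further probe sets differed for Mki67 (0.06, not called).

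Genes for building ribosomes rose in most members, and few genes of the ribosomal proteins were called. Of 45 measured ribosome biogenesis genes 40 were higher and 1 lower (median 0.97), and the count of rises was 37 to 40 when any single array was left out. Tsr1, which matures the small subunit, read 10.92, 10.93, 10.94 and 9.90 in the germ cells and 7.47, 8.33, 8.06 and 7.64 in the soma (2.80 ± 0.22 (SE), 6.95-fold, adjusted p = 1.3e-11). Gnl3, nucleostemin, a nucleolar GTPase of dividing stem cells, read 10.90, 10.97, 11.07 and 10.09 in the germ cells and 7.99, 8.33, 8.09 and 8.09 in the soma (2.63 ± 0.16 (SE), 6.19-fold, adjusted p = 1.3e-13). Rrs1 (2.67), Surf6 (2.27) and the polymerase I initiation factor Rrn3 (2.20) followed, and Polr1d, shared by polymerases I and III, was the fall (-0.97 ± 0.14 (SE)). Germ cell replicate 4 was nearest the soma in 22 of the 40, and without it 38 rose. Of 32 cytosolic ribosomal protein genes 3 rose, 4 fell and 25 were not called (median -0.06). Rpl22 was the largest fall (-1.19 ± 0.16 (SE)) and Rps28 the largest rise (0.71 ± 0.10 (SE)). Ribosomal protein genes have many processed copies, so their probe sets are uncertain, and the count of rises was 8 after a further quantile normalization. Other values came from further probe sets of Polr1d (0.09 and -0.06, not called), Rpl22 (-0.11, not called) and Rps28 (0.36, higher, and 0.18, not called).

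Protein synthesis and quality control rose in part. Of 54 translation factors and tRNA synthetases 29 were higher and 3 lower (median 0.36), led by the glycyl-tRNA synthetase Gars (2.26 ± 0.14 (SE)) and the initiation factor Eif5b (1.92 ± 0.15 (SE)). Of 41 proteasome genes 25 rose and 2 fell. The exceptions were Psmb10 (-0.85), a catalytic subunit of the immunoproteasome, and Psmd3 (-0.44). Psmb7, a catalytic subunit of the standard proteasome, read 11.52, 11.61, 11.42 and 10.52 in the germ cells and 8.76, 9.47, 9.08 and 8.78 in the soma (2.24 ± 0.19 (SE), 4.73-fold). Of 49 chaperone genes 26 rose and 7 fell. Cct8, a subunit of the cytosolic chaperonin, read 10.97, 11.56, 11.27 and 9.73 in the germ cells and 8.12, 9.19, 8.53 and 8.25 in the soma (2.36 ± 0.32 (SE), 5.13-fold), and Serpinh1, the collagen chaperone of the endoplasmic reticulum, read 9.57, 9.39, 9.11 and 9.79 in the germ cells and 11.95, 11.78, 11.86 and 11.78 in the soma (-2.38 ± 0.16 (SE), 5.20-fold). Among called chaperone rises, replicate 4 was the germ cell array nearest the soma in 21 of 26. The count of chaperone falls was 4 without germ cell replicate 3 or soma replicate 2. Splicing factors gave 22 higher and 5 lower of 54, with Nono the largest fall (-2.29 ± 0.21 (SE)). A further probe set disagreed for Eif5b (0.69, higher) and Nono (-0.39, not called).

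Metabolic genes moved by enzyme more than by pathway. Glycolysis gave 10 higher and 12 lower of 30 (median -0.04). Pfkp, the platelet form of phosphofructokinase, read 9.25, 9.02, 9.27 and 9.55 in the germ cells and 5.36, 5.04, 5.29 and 5.58 in the soma (3.96 ± 0.25 (SE), adjusted p = 2.2e-13), while Pfkl, the liver form, fell (-1.01 ± 0.13 (SE)). Ldhc, a lactate dehydrogenase of the germ line, rose (2.41 ± 0.11 (SE)), and Ldha fell (-1.25 ± 0.16 (SE)). Hk2 (1.47), Pkm (0.98) and the lactate carrier Slc16a1 (1.82) were also higher and Tpi1 lower (-2.23). Isoforms thus stood on opposite sides at 2 steps, and no array overlapped for Pfkp, Pfkl, Ldhc or Ldha. Probe sets disagreed for Hk2 (0.11, not called) and Pkm (0.53, higher).

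For the mitochondrial oxidation of pyruvate and the citrate cycle, 8 of 27 genes were higher and 7 lower. This is near the shares of 23.2% and 26.9% over all genes. Subunits of pyruvate dehydrogenase rose: Dlat (1.42), Pdhb (1.28) and Pdha1 (1.12). The NADP-dependent enzymes Idh1 (-1.61), Idh2 (-1.27) and Me1 (-1.51) fell. Oxidative phosphorylation gave 12 higher and 8 lower of 63 (median 0.02). Cox7a1, a form of a cytochrome oxidase subunit known from heart and muscle, read 5.24, 4.80, 5.18 and 5.63 in the germ cells and 2.88, 2.45, 2.50 and 2.72 in the soma (2.57 ± 0.16 (SE), 5.96-fold, adjusted p = 1.4e-13). Its signals are low, so the fold is a rough measure. In complex II, Sdha rose (1.42 ± 0.20 (SE)) and Sdhb (-0.76 ± 0.16 (SE)) and Sdhc (-1.13 ± 0.11 (SE)) fell. Values of further probe sets differed for Dlat (0.07, not called).

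Of 26 measured genes of one-carbon, serine and amino acid synthesis 13 rose and 3 fell. Gldc, the glycine-cleaving enzyme, read 9.33, 9.39, 9.17 and 9.34 in the germ cells and 5.77, 5.93, 5.96 and 5.88 in the soma (3.43 ± 0.15 (SE), 10.7-fold, adjusted p = 1.0e-16). The means were 9.31 ± 0.10 and 5.88 ± 0.09 (SD, n = 4 each), so the spread within groups was small against the difference. Shmt1 (2.13 ± 0.11 (SE)) and Psat1 (2.04 ± 0.15 (SE)), enzymes of serine and glycine synthesis, rose, and the neutral amino acid carrier Slc38a2 fell (-1.38 ± 0.21 (SE)). Of 30 genes of cholesterol and lipid synthesis 16 rose and 5 fell (median 0.52). Sqle, which makes squalene epoxide, read 10.06, 10.32, 10.34 and 9.46 in the germ cells and 8.23, 8.88, 8.70 and 8.18 in the soma (1.55 ± 0.17 (SE), 2.92-fold). Lss (1.54), Hmgcs1 (1.48), Msmo1 (1.41) and Idi1 (1.37), other enzymes of the sterol route, rose with it. The falls included the fatty acid desaturases Scd2 (-1.58) and Fads1 (-1.46). From further probe sets came other values for Shmt1 (0.23, higher) and Slc38a2 (-0.04, -0.05 and -0.11, not called).

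Chromatin genes were mixed, with single genes at the extremes. Of 22 measured Polycomb genes 10 rose and 4 fell (median 0.21). Eed, which reads trimethylated H3K27 within Polycomb repressive complex 2, read 10.43, 10.80, 10.61 and 9.48 in the germ cells and 6.91, 8.35, 7.75 and 7.33 in the soma (2.74 ± 0.28 (SE), 6.70-fold, adjusted p = 2.5e-09). Suz12 (1.36), Jarid2 (1.02) and Mtf2 (0.84) of the same complex also rose, and Cbx6 (-1.20) and Phc2 (-0.85) of complex 1 fell. The count of falls was 2 without germ cell replicate 2 or soma replicate 1, and germ cell replicate 4 was nearest the soma in 8 of the 10 rises. The architectural protein gene Hmga2 read 7.06, 7.28, 7.39 and 7.66 in the germ cells and 10.89, 11.14, 10.74 and 10.76 in the soma (-3.54 ± 0.14 (SE), 11.6-fold, adjusted p = 1.0e-17), and the acetyltransferase Kat2b rose by 2.48 ± 0.24 (SE). By further probe sets, values differed for Suz12 (-0.00 and -0.06, not called), Mtf2 (0.17, not called), Cbx6 (-0.28, lower) and Kat2b (0.08, not called).

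Germ cells lose DNA methylation around this age, and the genes of that process did not move one way. Of 19 measured, 8 rose and 3 fell. Uhrf1, which recruits the maintenance enzyme to hemimethylated DNA, read 10.52, 10.33, 10.52 and 10.62 in the germ cells and 11.24, 12.13, 11.61 and 11.27 in the soma (-1.06 ± 0.16 (SE), 2.09-fold, adjusted p = 2.2e-06). Dnmt1, the maintenance methyltransferase itself, read 9.52, 9.37, 9.51 and 9.47 in the germ cells and 8.31, 9.13, 8.42 and 8.24 in the soma (0.94 ± 0.16 (SE), 1.92-fold, adjusted p = 1.4e-05). The partners thus differed in opposite directions with no overlap of arrays for either. Hells, a remodeller needed for methylation, had the widest germ cell spread of the list, at 9.15, 10.01, 9.36 and 7.40 in the germ cells and 5.58, 6.56, 6.33 and 5.52 in the soma (2.98 ± 0.39 (SE), 7.88-fold, adjusted p = 2.2e-07). Ung, a uracil glycosylase of base excision repair (2.73 ± 0.17 (SE)), and Parp1 (1.52 ± 0.12 (SE)) rose, and the methyl-CpG binding genes Mbd2 (-1.13) and Mbd1 (-0.37) fell. Further probe sets differed for Dnmt1 (0.44, higher) and Ung (-0.32, lower).

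Imprinted genes were mostly lower in germ cells. Of 18 maternally expressed genes 10 fell and 3 rose (median -0.29), and of 16 paternally expressed genes 11 fell and 2 rose (median -0.91). Mest read 7.52, 7.34, 7.01 and 8.03 in the germ cells and 11.33, 11.48, 11.40 and 11.46 in the soma (-3.94 ± 0.18 (SE), 15.4-fold). Phlda2, a growth-restraining gene of the placenta expressed from the maternal allele, went the other way at 7.93, 8.28, 8.25 and 8.87 in the germ cells and 5.79, 5.70, 5.80 and 5.90 in the soma (2.53 ± 0.16 (SE), 5.80-fold, adjusted p = 1.8e-13). Ube3a also rose (1.23 ± 0.25 (SE)). The arrays do not tell alleles apart.

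Positional and mesodermal transcription factors stood higher in the soma where they were called, with 1 exception. Of 37 measured Hox and TALE genes 23 fell and none rose (median -0.33). Hoxc9 read 5.57, 5.76, 5.99 and 5.70 in the germ cells and 8.11, 8.33, 7.45 and 8.22 in the soma (-2.28 ± 0.17 (SE), 4.84-fold, adjusted p = 4.9e-12), and Hoxa5 (-1.54), Hoxa10 (-1.04, and -0.66 without soma replicate 2), Hoxa7 (-1.04) and the cofactor Meis1 (-1.97) followed. Of 47 mesoderm and limb-bud type factors 22 fell and 1 rose, led by Twist1 (-3.23 ± 0.17 (SE)), with Msx2 the rise (1.37 ± 0.17 (SE)). Sox11 (-3.51 ± 0.16 (SE)) and the orphan nuclear receptors Nr2f1 (-3.17 ± 0.29 (SE)) and Nr2f2 (-3.14 ± 0.22 (SE)) fell. Dmrt1, a gonad factor that both germ cells and Sertoli cells use, was higher in germ cells (1.78 ± 0.19 (SE)). Other values came from further probe sets of Nr2f2 (-0.25, not called).

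**Figure D5:**
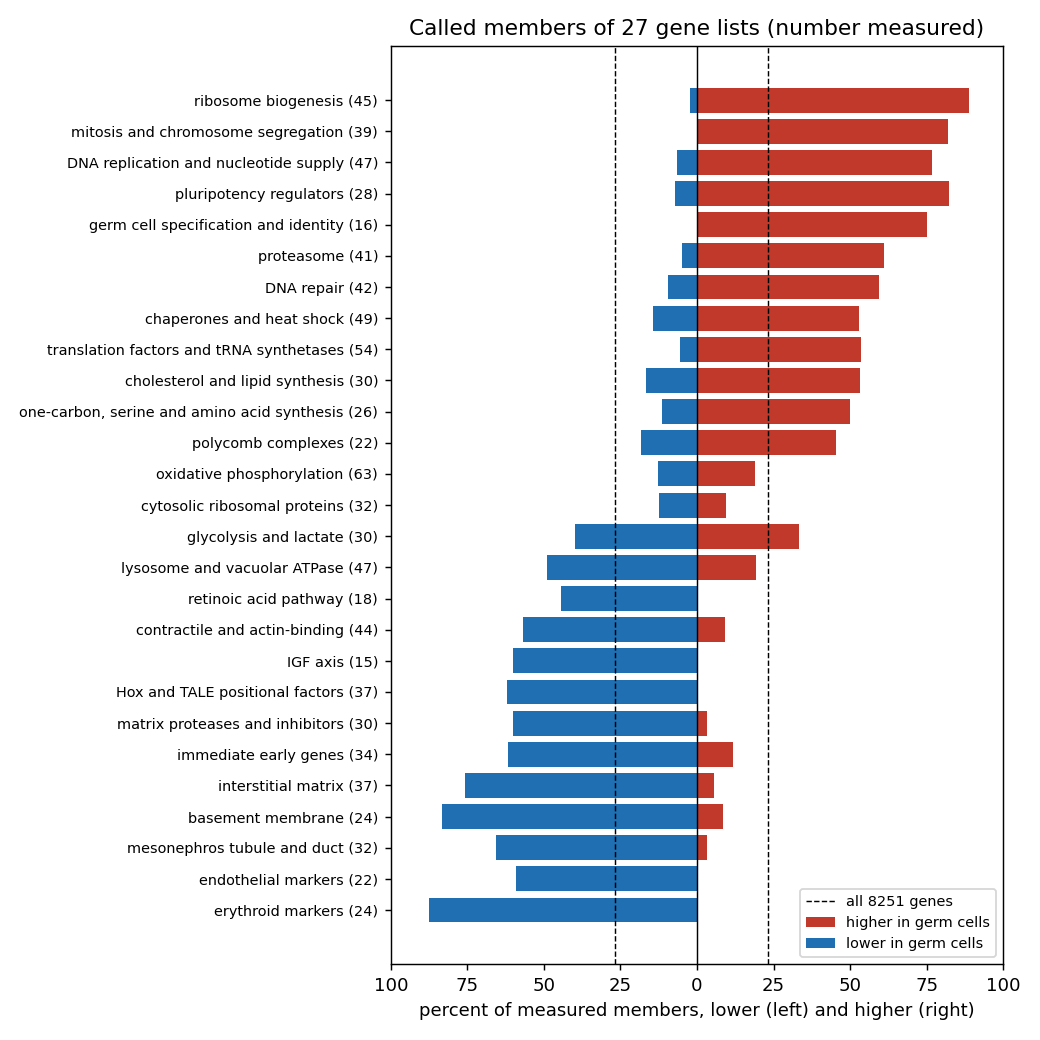
Number of members called higher and lower as percent of measured members (horizontal axis, percent) for 27 gene lists, with dashed lines at 23.2% and 26.9% for all 8251 genes. On the higher side stand ribosome biogenesis (40 of 45), pluripotency (23 of 28) and mitosis (32 of 39), and on the lower side erythroid markers (21 of 24), basement membrane (20 of 24) and interstitial matrix (28 of 37).

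Extracellular matrix genes were mostly lower in germ cells, as were the smooth muscle and endothelial lists given above, whose part in this was not tested. Of 37 interstitial matrix genes 28 fell and 2 rose (median -0.82; 28 falls without germ cell replicate 4), of 24 basement membrane genes 20 fell and 2 rose (median -0.73), and of 30 matrix proteases and inhibitors 18 fell and 1 rose. Col3a1 read 9.45, 8.96, 9.08 and 9.40 in the germ cells and 13.26, 13.43, 13.30 and 13.48 in the soma (-4.15 ± 0.11 (SE), 17.7-fold). Col4a1, a collagen of basement membranes, read 7.41, 7.06, 6.89 and 8.34 in the germ cells and 11.43, 11.03, 11.04 and 11.33 in the soma (-3.78 ± 0.26 (SE), 13.8-fold), with germ cell replicate 4 the highest of its group. Nid2, which links laminin to collagen IV, went the other way at 8.38, 8.65, 8.69 and 8.49 in the germ cells and 7.13, 6.48, 6.51 and 7.13 in the soma (1.74 ± 0.32 (SE), 3.35-fold, adjusted p = 3.7e-05). The protease Adam19 also rose (1.45 ± 0.09 (SE)), while the plasminogen activator gene Plat (-3.84 ± 0.14 (SE)) and the inhibitor Timp3 (-3.31 ± 0.16 (SE)) fell.

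Adhesion genes went both ways. Of 23 cadherin and junction genes 9 fell and 4 rose: the epithelial adhesion gene Epcam (1.99 ± 0.25 (SE)), desmoplakin Dsp (2.45 ± 0.28 (SE)), Pkp4 (2.12 ± 0.20 (SE)) and Dsg2 (0.57 ± 0.14 (SE)). Epcam read 7.82, 7.82, 7.83 and 7.31 in the germ cells and 5.82, 5.62, 5.10 and 6.29 in the soma. Cdh2, N-cadherin of mesenchyme and nerve, fell by 4.01-fold (-2.0 ± 0.39 (SE)), and the largest fall of the list was -3.34. Of 20 integrin genes 8 fell and 2 rose, with Itga6 the largest fall (-2.06 ± 0.17 (SE)). Of 30 surface adhesion genes 15 fell, led by Ncam1 (-3.64) and the glypican Gpc3 (-3.53), and Cd9, a tetraspanin, was among the 3 that rose (1.20 ± 0.20 (SE)). Gap and tight junction genes gave 7 of 20 lower and 2 higher. A further probe set disagreed for Dsp (0.28, higher), Dsg2 (0.03, not called) and Ncam1 (0.09, not called, and -1.61, lower).

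Cytoskeletal and immediate early genes were lower in germ cells in most called members. Of 44 contractile and actin-binding genes 25 fell and 4 rose (median -0.42). Acta2, smooth muscle actin, fell by 10.7-fold and Anxa2, an actin-linked annexin, by 14.1-fold. Tmsb4x, which sequesters actin monomers, read 8.33, 9.04, 7.51 and 8.87 in the germ cells and 11.17, 10.87, 11.13 and 11.51 in the soma (-2.73 ± 0.34 (SE), 6.63-fold). Of 34 immediate early genes 21 fell and 4 rose (median -0.68), with Gadd45g (-3.19), Zfp36l1 (-2.92) and Ccn1 (-2.74) behind Fos. Klf10, a TGF-beta induced factor, was the largest of the rises at 11.69, 11.89, 11.91 and 11.15 in the germ cells and 9.48, 9.74, 9.53 and 9.60 in the soma (2.07 ± 0.14 (SE), 4.21-fold). Immediate early genes respond within minutes to cell dissociation and sorting, and the labels do not say whether both fractions were handled for equal times. The part of handling in these falls was not tested. Probe sets disagreed for Fos (-0.11, not called).

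Lysosome, antioxidant and antigen presentation genes went both ways. Of 47 lysosome genes 23 fell and 9 rose, with Cd63 at 10.03, 9.73, 9.23 and 10.22 in the germ cells and 14.27, 14.00, 14.12 and 14.33 in the soma. The exception at the other end was Atp6v1c1, a subunit of the proton pump, at 10.40, 10.63, 10.65 and 9.72 in the germ cells and 7.26, 7.98, 7.71 and 7.57 in the soma (2.72 ± 0.21 (SE), 6.59-fold). Of 40 antioxidant genes 13 fell and 7 rose, near the shares of 26.9% and 23.2% over all genes: Mgst1 read 5.10, 5.03, 5.14 and 5.70 in the germ cells and 9.57, 9.61, 9.98 and 10.38 in the soma, and the mitochondrial superoxide dismutase Sod2 rose (1.59 ± 0.15 (SE)) with both subunits of the glutathione-making ligase, Gclc (1.37 ± 0.14 (SE)) and Gclm (1.15 ± 0.17 (SE)). Of 30 MHC class I and interferon genes 8 fell, 5 rose and 17 were not called (median -0.04), which is also near those shares. B2m, the light chain of MHC class I, read 9.66, 10.95, 9.40 and 11.02 in the germ cells and 14.16, 13.40, 13.75 and 14.63 in the soma (-3.73 ± 0.30 (SE), 13.3-fold, adjusted p = 2.9e-11). Irf1, a transcription factor of the interferon response, stood higher in germ cells at 8.47, 8.23, 8.51 and 8.39 in the germ cells and 6.27, 6.15, 6.11 and 6.21 in the soma (2.21 ± 0.10 (SE), 4.64-fold, adjusted p = 1.6e-16). Ifitm3, called Fragilis in germ cell work, rose as well (2.13 ± 0.18 (SE)).

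Genes of cell death gave 7 higher and 16 lower of 37 (median -0.10). Bid, which carries death receptor signals to mitochondria, rose by 1.92 ± 0.12 (SE) and the p53 target Perp by 2.34 ± 0.27 (SE). Casp6 (-2.27 ± 0.19 (SE)) and Casp8 (-0.99 ± 0.16 (SE)), executioner and initiator caspases, fell, and the receptor gene Tnfrsf1a fell too (-0.88 ± 0.13 (SE)). Fas and its ligand Fasl were not called (-0.01 and 0.11). Values of further probe sets differed for Tnfrsf1a (-0.08, not called).

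Each other group of the series was placed on a side of this contrast. For each gene, a group was counted as nearer germ cells where its mean lay beyond the midpoint of the germ cell and soma means. Of the 720 genes at least 2-fold higher, 82.22% were nearer germ cells in embryonic stem cells, 75.42% in inner cell mass, 51.94% in neural stem/precursor cells, 50.83% in embryonic germ cells, 34.72% in hematopoietic stem/precursor cells and 21.67% in embryonic fibroblasts. Of the 649 genes at least 2-fold lower, the shares in the same order were 83.82%, 77.04%, 61.48%, 73.34%, 65.33% and 29.89%, so fibroblasts alone were nearer the soma for most falls. Germ cells at E13.5 kept the low side more than the high side: 89.98% and 94.61% of the falls were nearer E11.5 germ cells in female and male E13.5 germ cells, but 56.53% and 45% of the rises. All groups share the 8 arrays that define the midpoint, so these shares are descriptions with no test.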

How the data were processed

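Expression was measured on Affymetrix arrays, and the deposited log2 values were made by the authors with RMA, per the submitters' processing notes, which give no version. Arrays have no read depth, and their number limits the precision. The table holds 12488 probe sets, of which 10833 carry 1 gene symbol by the platform annotation. Old symbols were replaced through their gene IDs (RefSeq gene table, GRCm38.p6), and the brightest probe set over 32 arrays stood for each of 8251 genes. The 2 columns that equal the mean of others were left out.

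Limma 3.58.1 (R 4.3.3; lmFit, then eBayes) fitted a mean for each of 10 groups, the contrast was germ cells minus soma, and p-values were adjusted by Benjamini-Hochberg over all genes. The fit was tested on simulated data. Named genes are the 15 largest rises and falls without overlapping arrays, measured ligands and receptors, up to 5 called members of a list in each direction with members against its direction, and defining markers. Members, lists and tests were chosen with earlier results of these data known. Promoters came from RefSeq, and those on chromosome 18 were not used here. Alternatives are in the closing section.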

Additional observations from a re-analysis of the deposited data

Results flagged for a closer look

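The highest and lowest of the 4 arrays of a group were tested for a gap to the other 3 by Dixon's ratio. This was done for each gene named above except Kdr. Of 502 such groups 35 (6.97%) held an array past the 95% critical value, where chance alone gives about 1 in 20. Germ cell replicate 4 was that array in 20 of the 35. It stood below the other germ cell arrays for Bub1 (9.86), Ddx4 (6.24), Dmrt1 (6.89), Ect2 (10.97), Epcam (7.31), Gars (10.14), Gnl3 (10.09), Hk2 (8.05), Kit (7.91), Ptch1 (7.56), Rrs1 (11.10), Smc3 (9.53), Tfap2c (11.71) and Tsr1 (9.90), where the value is its log2 signal. It stood above them for Cdk4 (12.24), Erbb3 (9.07), Mdk (10.92), Mgst1 (5.70), Rfc2 (9.32) and Sdhb (10.22). Germ cell replicate 1 stood below the others for Dhrs3 (6.39) and Syce2 (8.30) and above the others for Polr1d (7.81). Germ cell replicate 2 stood below the others for Axl (6.92). Germ cell replicate 3 stood below the others for Efnb2 (8.29). Soma replicate 1 stood above the others for Fzd2 (10.62) and Parp1 (8.64). Soma replicate 2 stood below the others for Ltbp1 (9.78), Nr5a1 (10.16) and Pax8 (7.68) and above the others for Sox11 (11.66). Soma replicate 3 stood above the others for Ddx4 (4.69). Soma replicate 4 stood below the others for Emcn (8.56) and above the others for Cd9 (8.24) and Rhox5 (5.81). What sets germ cell replicate 4 apart was not tested.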

How the results depend on the processing

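The 4 counts of called genes stayed within 1.5 times their reported values under every alternative run. With the replicate number as a replicate block over the 8 arrays, 1990 genes were higher and 2233 lower (720 and 648 at least 2-fold). Residuals of like-numbered arrays correlated at -0.353, 0.521, 0.165 and 0.332, not all above 0.1, and not every array correlated best with its own number, so the numbers were not taken as pairs. With any single array left out, 1793 to 1930 genes were higher and 1984 to 2255 lower (677 to 816 and 629 to 681 at least 2-fold). Limma's array weights gave 2276 higher and 2811 lower, centring each array on its median 2107 and 1968, and the mean over a gene's probe sets 1953 and 2162 (630 and 573). Choosing the brightest probe set over the 8 compared arrays, an alternative added after seeing the data, gave 1912 and 2227. Of the differences of named genes, 1 reversed: Igf2 was 0.0659 with only probe sets ending in plain _at, where its bright probe set is left out. Calls of named genes were lost in 40 and gained in 18 of the recomputed values and kept in 4636. Counts of list members moved by over 1.5 times in 120 of 2318 recomputed values. Macrophage falls were 21 with array weights and 6 with centring, oxidative phosphorylation falls 17 and antioxidant falls 20 with array weights, and ribosomal protein counts 6 higher and 10 lower with array weights. Signal over background is unknown, so small differences of dim genes are limited.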

Other observations

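Of 16 measured genes of steroid synthesis 5 were lower in germ cells and 1 higher, and Hsd3b6 (-1.09 ± 0.12 (SE)) and Inha were the 2 falls of at least 2-fold. Membrane transporters gave 14 higher and 14 lower of 48, near the shares of 23.2% and 26.9% over all genes. The lactate carrier Slc16a1 read 6.80, 7.20, 6.46 and 5.33 in the germ cells and 4.64, 4.66, 4.60 and 4.62 in the soma (1.82 ± 0.27 (SE), 3.52-fold), and the large neutral amino acid carrier Slc7a5 rose by 1.19 ± 0.11 (SE). The creatine carrier Slc6a8 fell (-1.71 ± 0.15 (SE)), as did the red cell anion exchanger Slc4a1 (-2.01 ± 0.17 (SE)). Of 36 nuclear receptor genes 6 fell and 2 rose, and the rises were Nr5a2, a regulator of Oct4 in early embryos (1.74 ± 0.10 (SE)), and the clock gene Nr1d2 (1.92 ± 0.24 (SE)). From further probe sets came other values for Slc6a8 (0.09, not called).

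The TATA letters (TATAAA, either strand) were in 25.93% of 27 immediate early and 23.81% of 21 interstitial matrix promoters, against 9.33% of 6572. The other lists searched lay between 2.5% and 13.51%. The share was 5.02% of 578 promoters of genes at least 2-fold higher in germ cells and 8.46% of 508 at least 2-fold lower. These are counts of letters in 250 bases and were not tested.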
